A study of Macaca mulatta with 2 samples.

Results

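The genes described here are 8 members of the BCL2 family: BCL2, BCL2L1, MCL1, BCL2A1, BCL2L11, BAX, BAK1 and BID. They were taken by symbol from the gene list of the deposited counts, which holds 35432 genes, and each symbol had a row there. The cells were isolated as double positive (DP) T cells, which carry both CD4 and CD8 on their surface. They came from the peripheral blood of 1 untreated rhesus monkey (Macaca mulatta) of 6 years, and were isolated first with CD4 beads and then with CD8 beads. No limit on surface CD4 or CD8 was set here, so cells low in either remain among those described. The same cells gave a 5′ RNA library and counts of antibody tags for CD4 and for CD8, and both share all 7923 cell barcodes. There was 1 sample, no control animal and no replicate, so the values below carry no test, and every interval is a 95% interval that covers counting error only.

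BCL2 family proteins set the threshold for the mitochondrial route of programmed cell death. BCL2, BCL2L1 (BCL-XL), MCL1 and BCL2A1 (BFL1 or A1) hold the mitochondrial outer membrane closed, BAX and BAK1 open pores in it, and BCL2L11 (BIM) and BID are BH3-only proteins that promote opening, by engaging the protective members or the pore formers. In T cells, BCL2 is known for the survival of resting cells under IL-7, BCL2L1 and BCL2A1 are induced on activation, and BIM is known for the loss of cells at the end of a response.

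The members meet through the BH3 helix, whose core is a leucine followed by any 3 residues, a glycine and an aspartate. In the RefSeq annotation of Mmul_10, the build of the deposited counts, the translated coding sequence held this core once in 7 of the 8 members, and not in BCL2A1. It was held by 13.6% of the longest coding sequences of all 21252 genes examined, so a match alone does not mark a family member. Members were searched from their longest transcript down to the first with the core. The share over all genes took only the longest of each, so both rules differ. The coding stretches around the core are shown so that the part shared by protective, pore-forming and BH3-only members can be seen; each runs 5′ to 3′ on the coding strand, with the codons for leucine, glycine and aspartate in capitals.
BCL2: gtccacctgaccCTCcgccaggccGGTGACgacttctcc
BCL2L1: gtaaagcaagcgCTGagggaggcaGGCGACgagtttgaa
MCL1: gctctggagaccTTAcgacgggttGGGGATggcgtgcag
BAX: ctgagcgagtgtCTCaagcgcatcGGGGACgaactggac
BAK1: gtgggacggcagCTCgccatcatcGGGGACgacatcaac
BCL2L11: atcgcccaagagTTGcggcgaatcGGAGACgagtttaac
BID: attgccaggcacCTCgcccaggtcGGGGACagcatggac
The stretches lie in coding exons, at chr18:16793462-16793500 (plus strand) in BCL2, chr10:66965763-66965801 (minus) in BCL2L1, chr1:100565524-100565562 (plus) in MCL1, chr19:48937628-48937666 (plus) in BAX, chr4:135926240-135926278 (plus) in BAK1, chr13:14350291-14350329 (plus) in BCL2L11 and chr10:34270690-34270728 (plus) in BID. BCL2A1 lies at chr7:57249639-57258885 on the minus strand.

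After the study's filters of 200 to 4000 genes and at most 20% mitochondrial UMIs (unique molecular identifiers, each counting 1 captured molecule), 7601 cells remained. Of them, 7311 had a UMI of CD3E, a CD3 chain of the T cell receptor complex, which defined the cells used here. CD3D was detected in 92.9%, CD3G in 77.8% and TRAC in 69.5% of these 7311 cells, which had a median of 3656 UMIs. B cell genes summed to 74.6 CPM (counts scaled to 1000000 gene UMIs), and 1.30% of the cells held 3 or more UMIs of them. Of the NK cell list, KLRF1 gave 71.2 of 72.4 CPM. Monocyte, platelet and plasmacytoid dendritic genes each summed to at most 9.33 CPM, and FCN1 was at 0 among the monocyte genes. Hemoglobin genes summed to 242 CPM, with HBA at 151 CPM in 12.0% of cells and HBB at 88.3 CPM in 0.150%. No doublet caller was run.

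All 8 members were detected in the CD3E+ cells, with 14104 UMIs together. Among the protective members, MCL1 had 4988 UMIs (166 CPM, 161 to 170) in 44.4% of cells, and BCL2A1 had 1334 (44.3 CPM, 42.0 to 46.7) in 15.0%. BCL2 had 1083 UMIs (36.0 CPM, 33.9 to 38.2) in 12.5% of cells and BCL2L1 had 849 (28.2 CPM, 26.3 to 30.2) in 10.7%. Of the pore formers, BAX had 3604 UMIs (120 CPM, 116 to 124) in 37.0% of cells and BAK1 had 534 (17.7 CPM, 16.3 to 19.3) in 6.91%. Of the BH3-only members, BID had 966 UMIs (32.1 CPM, 30.1 to 34.2) in 12.2% of cells and BCL2L11 had 746 (24.8 CPM, 23.0 to 26.6) in 8.89%. A 5′ UMI counts a molecule once whatever its length, but capture can differ between genes, so levels were compared between groups of cells and not between genes.

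Most cells showed few members at this depth. No member had a UMI in 1475 cells (20.2%), 1 member in 2565 (35.1%), 2 in 2048 (28.0%), and no cell showed all 8. When each cell was thinned to 2000 gene UMIs, which left 6935 cells, 40.9% showed none and 40.2% showed 1. Thinned cells with BCL2L1 showed BCL2 in 5.44% (3.40 to 8.20%), against 6.38% of those without it, and the interval holds the second value. In 86 barcodes that had 3 or more B cell gene UMIs and no CD3E, CD3D or CD3G, MCL1 was at 403 CPM (343 to 471), BCL2A1 at 134 on 53 UMIs, BID at 83.1 (57.2 to 117) and BCL2L1 at 12.6 (4.09 to 29.4). Those cells had a median of 4137.5 UMIs and gave MCL1 in 67.4% and BCL2L1 in 3.49%.

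The family was then compared by raw UMIs of 6 genes: CCR7, a homing receptor of naive and central memory T cells; GZMB, a granule protease of cytotoxic cells; EOMES, a transcription factor of memory and cytotoxic cells; FOXP3, the regulatory T cell factor; CXCL13, a chemokine made by follicular helper cells; and TRAV10, a variable segment of the T cell receptor alpha chain. A gate held the cells with at least 1 UMI of the gene, or at least 5 for GZMB; 2.33% of the 86 B cell gene barcodes reached 5 GZMB UMIs. The gates held 2163 cells (CCR7), 2426 (GZMB), 356 (EOMES), 162 (FOXP3), 73 (CXCL13) and 247 (TRAV10); 4226 cells were in exactly 1 gate, 578 in 2 or more and 2507 in none. A member counted as past the fold when its CPM was 1.5 times higher or lower, provided that at least 20 UMIs were expected in the smaller group at equal levels, and the share of all genes past the same fold is given beside the counts.

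The GZMB gate set the protective members apart from each other. BCL2 was lower in the gate, BCL2L1 and BCL2A1 were higher, and MCL1 was level. BCL2 gave 183 UMIs in the gate (19.2 CPM, 16.5 to 22.2) and 900 outside it (43.7 CPM, 40.9 to 46.6), a log2 ratio of -1.18 (-1.42 to -0.95). BCL2L1 gave 420 UMIs in the gate (44.1 CPM, 40.0 to 48.6) and 429 outside (20.8 CPM, 18.9 to 22.9), a log2 ratio of 1.08 (0.89 to 1.28). These intervals lie far from each other for both genes, in opposite directions. BCL2A1 gave 622 UMIs in the gate (65.4 CPM, 60.3 to 70.7) and 712 outside (34.6 CPM, 32.1 to 37.2), a log2 ratio of 0.92 (0.76 to 1.08). MCL1 stood at 165 CPM (156 to 173) in the gate and 166 (161 to 172) outside, a log2 ratio of -0.01 (-0.10 to 0.07). Of the UMIs of BCL2 and BCL2L1 together, BCL2L1 took 69.7% (65.8 to 73.3%) in the gate and 32.3% (29.8 to 34.9%) outside.

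The pore formers and BH3-only members were higher in the GZMB gate by less. BAK1 gave 24.0 CPM (20.9 to 27.3) in the gate and 14.9 (13.2 to 16.6) outside, a log2 ratio of 0.69 (0.44 to 0.94), and was past the fold. BAX, at 141 against 110 CPM, had a log2 ratio of 0.36 (0.26 to 0.46). BCL2L11 had a log2 ratio of 0.57 (0.36 to 0.79; 31.9 against 21.5 CPM), and BID of 0.51 (0.32 to 0.70; 40.2 against 28.3 CPM). All 8 members were counted; 3 were past the fold higher, where 17.3% of the 9692 genes counted were, and 1 was lower, where 8.77% were. The median log2 ratio was 0.54 over the members and 0.18 over all these genes. The intervals of BAX, BID and BCL2L11 lie above 0.18. Of all these genes, 67.2% had a lower ratio than BAX, 78.2% than BID and 82.1% than BCL2L11.

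The differences were also seen at 1 fixed depth. In cells thinned to 2000 UMIs (2351 in the gate, 4584 outside), BCL2 was detected in 2.98% against 8.05%, BCL2L1 in 8.72% against 3.95%, and BCL2A1 in 11.5% against 6.35%. MCL1 was detected in 26.4% and 26.5%. The gate had a median of 3317.5 UMIs and the cells outside it 3879. PRF1, NKG7 and CX3CR1, which cytotoxic cells share with GZMB, were past the fold higher in the gate. So was KLRF1 of the NK list (169 against 26.0 CPM), while NCAM1, FCGR3 and NCR1 were near or at 0, and B cell genes were lower (57.8 against 82.4 CPM). Genes of cycling cells, mostly STMN1, summed to 192 CPM in the gate and 93.5 outside, and hemoglobin genes to 115 and 300.1. Their part in the ratios was not tested, except that without cells holding B cell genes the log2 ratios were -1.31 for BCL2, 1.08 for BCL2L1 and 0.98 for BCL2A1.

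The members followed the number of GZMB UMIs in different ways. From 0 to 1 to 4, 5 to 19 and 20 or more GZMB UMIs (4038, 847, 1889 and 537 cells), BCL2 stood at 46.6, 27.2, 19.8 and 17.7 CPM. BCL2L1 went the other way, at 19.7, 27.2, 43.1 and 47.2 CPM. BCL2A1 stood at 33.6, 39.8, 61.8 and 75.4 CPM. With each GZMB bin BCL2 fell and BCL2L1 and BCL2A1 rose, though the counting intervals of the last 2 bins overlap for all 3. BAK1 (14.1, 19.4, 21.5 and 31.1 CPM), BID (26.9, 36.3, 36.4 and 51.2) and BAX (106, 132, 136 and 155) were also highest in the last bin. BCL2L11 was not: it stood at 17.8 CPM (15.8 to 19.9) without GZMB, 42.4 (35.5 to 50.3) with 1 to 4 UMIs, 35.1 (30.9 to 39.8) with 5 to 19 and 23.0 (17.4 to 29.8) with 20 or more. With the gate at 20 UMIs its log2 ratio was -0.12, and with the gate at 1 UMI 0.96, so the higher level of BCL2L11 in the gate was not seen with the gate at 20, where it rests on 57 UMIs. BCL2L1 took 29.7% of the UMIs of BCL2 and BCL2L1 without GZMB, 84 UMIs against 84 with 1 to 4 GZMB UMIs, and then 68.6% and 72.7%.

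**Figure D1:**
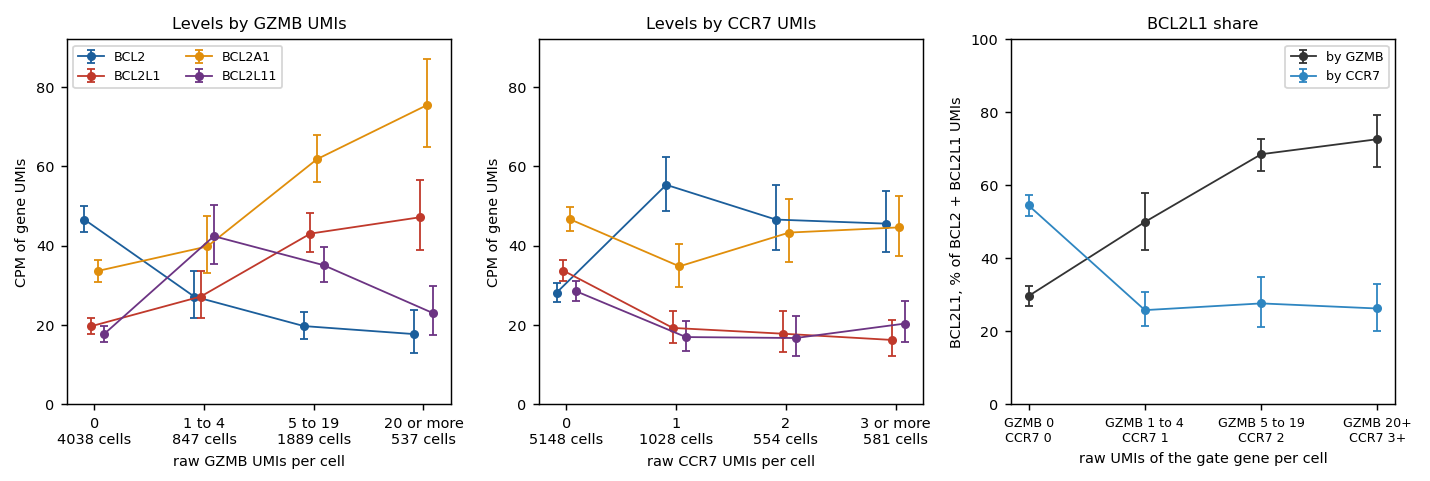
The left and middle panels plot the level (CPM of gene UMIs, y axis) of BCL2, BCL2L1, BCL2A1 and BCL2L11 in CD3E+ cells binned by raw GZMB or CCR7 UMIs (x axis), and the right panel plots BCL2L1 as a percent of BCL2 and BCL2L1 UMIs; points are sums over the cells of a bin and bars are 95% counting intervals. BCL2 goes from 46.6 to 17.7 CPM and BCL2L1 from 19.7 to 47.2 with GZMB, BCL2L11 peaks at 1 to 4 GZMB UMIs, and with CCR7 the step lies between 0 and 1 UMI.

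Gate cells were also grouped by receptor segment, and a cell with UMIs of several segments is counted with each of them. The segments TRAV12-2, TRAV19 or TRBV7-3 had a UMI in 41.5% of the GZMB gate. BCL2 stood at 25.5 CPM (17.4 to 36.0) in gate cells with TRAV12-2, 21.9 (15.9 to 29.5) with TRAV19, 14.2 (7.59 to 24.4) with TRBV7-3 and 17.7 (14.4 to 21.6) without any of them. BCL2L1 stood at 57.4 (44.9 to 72.2), 39.2 (31.0 to 49.0), 44.9 (32.3 to 61.0) and 42.3 (37.1 to 48.1) CPM in the same order. Each of these 4 BCL2 levels was below, and each BCL2L1 level above, that of the cells outside the gate. BID was higher in gate cells with TRBV7-3 (59.2 CPM, 44.5 to 77.2) than with TRAV12-2 (31.9, 22.8 to 43.4), and these intervals do not overlap. This contrast is picked from many, over the members and pairs of segment groups, and was not tested.

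The CCR7 gate showed the opposite balance. BCL2 gave 535 UMIs in the gate (50.2 CPM, 46.1 to 54.7) and 548 outside (28.2 CPM, 25.8 to 30.6), a log2 ratio of 0.83 (0.66 to 1.01). BCL2L1 gave 192 in the gate (18.0 CPM, 15.6 to 20.8) and 657 outside (33.8 CPM, 31.2 to 36.4), a log2 ratio of -0.91 (-1.15 to -0.67). The intervals of the levels inside and outside the gate do not overlap for either gene, BCL2 being the higher and BCL2L1 the lower in the gate. BCL2L11 was lower, at 17.9 CPM (15.5 to 20.7) against 28.5 (26.2 to 31.0), a log2 ratio of -0.67 (-0.91 to -0.43). So was BAK1, at 13.1 against 20.2 CPM, a log2 ratio of -0.62 (-0.91 to -0.34). BAX and BID both had a log2 ratio of -0.37, BCL2A1 of -0.23 (-0.40 to -0.06), and MCL1 of 0.06 (-0.03 to 0.14). Of the 8 members, 1 was past the fold higher and 3 lower, where 5.99% of 9838 genes were higher and 13.3% lower. The median log2 ratio was -0.37 over the members and -0.16 over all these genes.

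The CCR7 ratios were smaller among cells outside the GZMB gate. Of the cells outside the CCR7 gate, 44.2% were in the GZMB gate, against 6.89% of those inside. Among cells outside the GZMB gate, the CCR7 log2 ratio was 0.47 for BCL2, -0.61 for BCL2L1, -0.55 for BCL2L11 and -0.47 for BAK1, and only BCL2L1 remained past the fold. Against the cells in none of the 6 gates, BCL2 was at 0.38 and BCL2L1 at -0.43 on the log2 scale, and no member was past the fold. These genes kept their direction in both, while BCL2A1 went from -0.23 to 0.04 outside the GZMB gate and to 0.17 against the cells of no gate. BCL2A1 moved the other way, to -0.47, without cells holding B cell genes, and to -0.48 without the 5% of cells with most UMIs. MCL1 was at -0.07 without cells holding B cell genes. Beyond the first CCR7 UMI there was no further step: BCL2 stood at 28.2 CPM with 0, 55.4 with 1, 46.6 with 2 and 45.6 with 3 or more, and BCL2L1 at 33.8, 19.3, 17.8 and 16.3. The CCR7 gate had more UMIs per cell (median 4377 against 3451) and more B cell gene RNA (130 against 44.2 CPM); thinned to 2000 UMIs, BCL2 was detected in 8.77% of its cells against 5.28%, and BCL2L1 in 2.97% against 6.68%. Cycling genes summed to 80.9 CPM in the gate and 149 outside, and hemoglobin genes to 7.89 and 369; their part in the ratios was not tested. LEF1 and TCF7, genes of naive and central memory cells, were past the fold higher in the gate.

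Both gates met in 149 cells. BCL2 stood there at 41.0 CPM (30.4 to 54.1), BCL2L1 at 32.0 (22.7 to 43.7) and BCL2A1 at 77.1 (62.3 to 94.3), so that BCL2L1 took 43.8% (33.3 to 54.7%) of the UMIs of BCL2 and BCL2L1, between the shares of both gates. These cells had a median of 7517 UMIs and 9.40% of them held 3 or more B cell gene UMIs; the part of doublets in their values was not tested. Without the CCR7 cells the GZMB log2 ratios were -1.21 for BCL2, 0.89 for BCL2L1, 0.90 for BCL2A1 and -0.11 for MCL1.

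**Figure D2:**
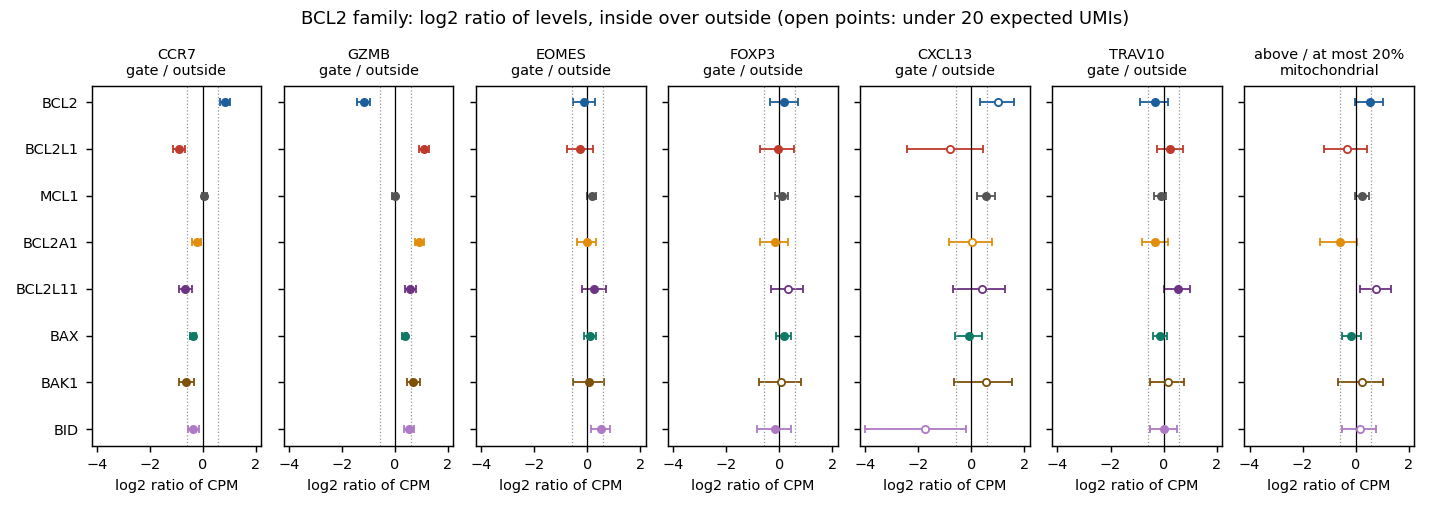
Log2 ratios of CPM (x axis) for the 8 members (y axis), inside over outside each of the 6 gates and, at the right, above over at most 20% mitochondrial UMIs; bars are 95% counting intervals, dotted lines mark 1.5-fold, and open points had under 20 expected UMIs. In the GZMB panel BCL2 lies at -1.18 and BCL2L1 at 1.08, and in the CCR7 panel at 0.83 and -0.91.

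The EOMES gate differed little in the family. BID was higher, with 70 UMIs (45.0 CPM, 35.0 to 56.8) in the gate and 896 (31.4 CPM, 29.4 to 33.5) outside, a log2 ratio of 0.52 (0.15 to 0.87), short of the fold. The intervals of the other 7 members included 0, from BCL2L1 at -0.26 (-0.78 to 0.22) to BCL2L11 at 0.27 (-0.19 to 0.70). Of the 8 members, 0 were past the fold in either direction, where 2.4% of 6000 genes were higher and 3.18% lower. GZMK and CST7, granule genes that go with EOMES, were past the fold higher. B cell genes were also higher in the gate (144.5 against 70.8 CPM), and without cells holding them BID had a log2 ratio of 0.44. Against the cells of no gate BID was at 0.61, past the fold. Among cells outside the GZMB gate BID was at 0.50 and BCL2L11 at 0.57, both short of it. The CCR7 gate held 38.2% of the EOMES gate cells and the GZMB gate 23.3%, against 29.1% and 33.7% of the cells outside.

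In the FOXP3 gate 6 of the 8 members had enough UMIs to be counted, and 0 were past the fold, where 3.22% of 3976 genes were higher and 12.5% lower. BCL2 stood at 41.0 CPM (28.2 to 57.6) on 33 UMIs against 35.8 outside, and MCL1 at 175 (147 to 207) against 165. The intervals of all 8 included 0, the farthest from it being BCL2L11 at 0.34 (-0.30 to 0.91) on 25 UMIs, which was not counted. Differences below about the width of these intervals were not detectable at this depth. The CCR7 gate held 71.0% of the FOXP3 gate cells and the GZMB gate 5.56%, against 28.6% and 33.8% of the cells outside. Among cells outside the GZMB gate the log2 ratio of BCL2 was -0.06, and the part of the CCR7 cells was not tested.

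The CXCL13 gate had the fewest cells, and 2 members could be counted. MCL1 gave 75 UMIs (242 CPM, 191 to 304) in the gate against 165 CPM outside, a log2 ratio of 0.55 (0.21 to 0.88), and BAX was at -0.08 (-0.61 to 0.40). Of these 2, 0 were past the fold, where 7.35% of 1701 genes were higher and 7.76% lower. BCL2, with 22 UMIs (71.0 CPM, 44.5 to 108) against 35.6 CPM outside, had a log2 ratio of 0.997 (0.32 to 1.60), but only 11.1 UMIs were expected. BID had 3 UMIs in the gate where 9.94 were expected, a log2 ratio of -1.74 (-4.02 to -0.19). In cells thinned to 2000 UMIs, BCL2 was detected in 17.6% of the gate and in 6.22% outside. The CCR7 gate held 57.5% of these gate cells and the GZMB gate 6.85%, against 29.3% and 33.4% of the cells outside. Among cells outside the GZMB gate the log2 ratio of BCL2 was 0.89, and the part of the CCR7 cells was not tested.

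In the TRAV10 gate 7 members were counted and 0 were past the fold, where 1.46% of 5007 genes were higher and 3.91% lower. BCL2L11 gave 39 UMIs (35.2 CPM, 25.1 to 48.2) against 24.4 CPM outside, a log2 ratio of 0.53 (0.03 to 0.997). BCL2 was at -0.33 (-0.88 to 0.18), BCL2A1 at -0.30 (-0.80 to 0.15) and BCL2L1 at 0.26 (-0.26 to 0.73). The log2 ratio of BCL2A1 was -0.97, past the fold, among cells outside the GZMB gate, and 0.03 against the cells of no gate. The CCR7 gate held 19.4% of the TRAV10 gate cells and the GZMB gate 26.3%, against 29.9% and 33.4% of the cells outside. The part of the CCR7 cells was not tested. By TRAV10 UMIs, the cells with 3 or more had BCL2 at 19.3 CPM (9.99 to 33.8) and BCL2L1 at 43.5 (28.7 to 63.3), a BCL2L1 share of 69.2% (52.4 to 83.0%), against 43.6% (41.3 to 45.9%) in cells without TRAV10. With 1 TRAV10 UMI the share was 31.6% (12.6 to 56.5%) and with 2 it was 36.4% (10.9 to 69.2%), both with the value of the cells without TRAV10 inside their intervals. ZBTB16, a transcription factor of innate-like T cells, stood at 85.8 CPM in the gate and 5.93 outside.

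The gates share cells, so levels were also taken in 7 groups that do not overlap: the cells of exactly 1 gate, for each of the 6, and the cells of none. BCL2 was highest in the CXCL13 cells at 77.5 CPM, which rest on 7 UMIs, then stood at 51.0 CPM (46.1 to 56.1) in the CCR7 cells, 38.5 (34.7 to 42.6) in the cells of no gate, 29.5 in FOXP3, 24.6 in EOMES and 21.6 in TRAV10 cells, and 16.4 (13.7 to 19.5) in the GZMB cells. Of these neighbours, CCR7 and the cells of no gate differed beyond counting error. BCL2L1 ran from 46.3 CPM (41.6 to 51.3) in the GZMB cells through 34.2 in TRAV10, 26.3 in EOMES, 24.3 (21.3 to 27.6) in no gate, 22.1 in CXCL13 and 19.6 in FOXP3 cells to 15.8 (13.2 to 18.8) in the CCR7 cells, with no pair of neighbours apart beyond counting error. The 4 groups of EOMES, FOXP3, CXCL13 and TRAV10 cells rest on 2 to 19 UMIs each for these genes, so their places in either order are loose. In the BCL2L1 order they stand between the larger groups. The BCL2L1 intervals of the GZMB cells, the cells of no gate and the CCR7 cells do not overlap.

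The other members ordered the groups differently. BCL2A1 was highest in the GZMB cells (63.2 CPM, 57.7 to 69.1) and lay at 34.7 to 35.5 CPM in the CCR7, EOMES and ungated cells, with 18.0 in TRAV10 cells (10 UMIs) and 9.82 in FOXP3 cells (2 UMIs). The TRAV10 cells were below the CCR7 cells, their neighbour in the BCL2A1 order, beyond counting error. BAX ran from 93.8 CPM (87.2 to 101) in the CCR7 cells to 145 (136 to 153) in the GZMB cells, with 155 in CXCL13 cells on 14 UMIs. BAK1 was at 24.6 CPM (21.2 to 28.3) in the GZMB cells, 17.1 (14.6 to 19.9) in the ungated and 10.8 (8.66 to 13.3) in the CCR7 cells. Both pore formers were thus higher in the GZMB cells than in the CCR7 cells, with intervals that do not overlap. BCL2L11 was lowest in the CCR7 cells, at 15.4 CPM (12.8 to 18.4), below the ungated cells at 23.0 (20.1 to 26.3) beyond counting error. BID was highest in the 44 FOXP3 cells, at 68.7 CPM on 14 UMIs, with 40.3 in the GZMB cells. This step was within counting error (log2 0.77, -0.12 to 1.54). In the whole FOXP3 gate BID was not higher, at 28.6 CPM on 23 UMIs against 32.2 CPM outside. MCL1 lay between 151 and 199 CPM in all 7 groups, and the highest value, in CXCL13 cells, rests on 18 UMIs (118 to 315). No pair of neighbours in its order differed beyond counting error, and groups farther apart in the order were not compared.

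**Figure D3:**
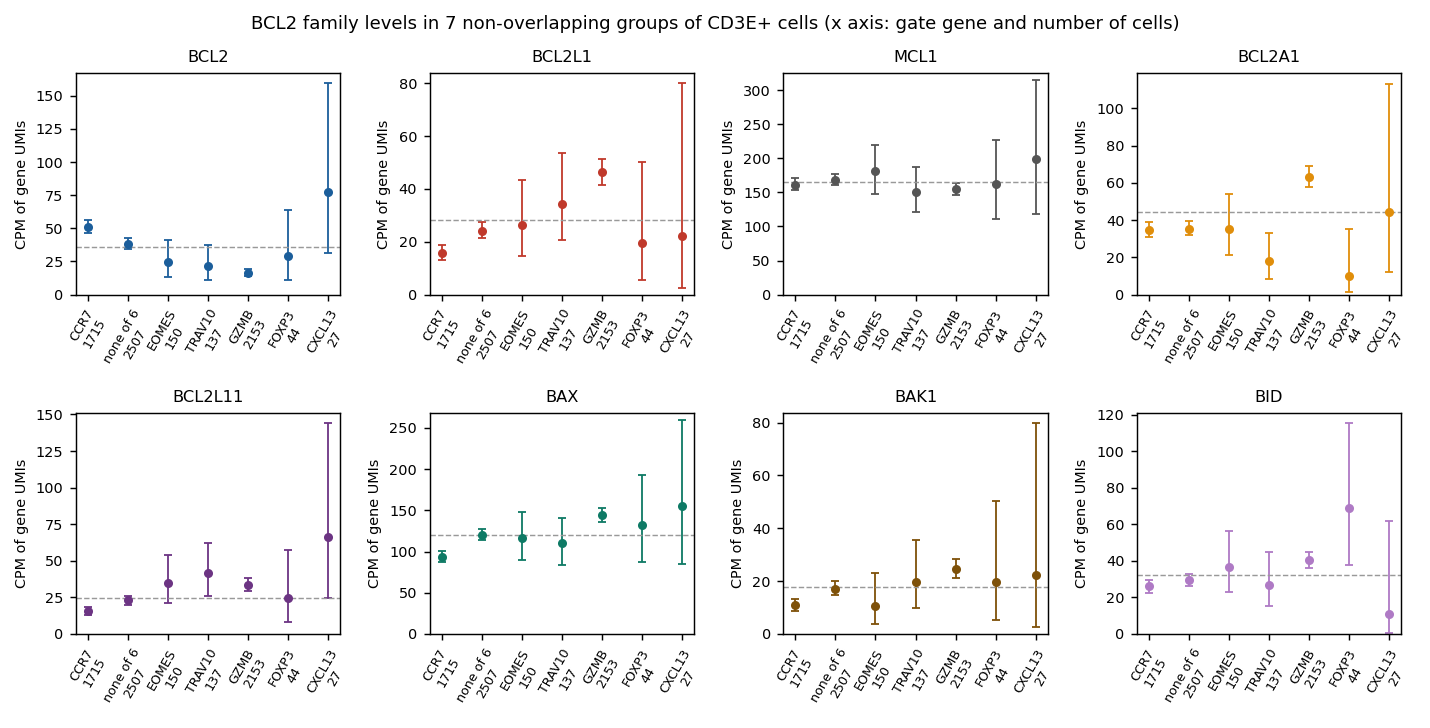
Each panel plots the level of 1 member (CPM of gene UMIs, y axis) in 7 groups of CD3E+ cells that do not overlap (x axis, gate gene with the number of cells); points are sums over the cells, bars are 95% counting intervals, and the dashed line is the level over all 7311 CD3E+ cells. BCL2 is at 51.0 CPM in CCR7 cells and 16.4 in GZMB cells, and BCL2L1 at 15.8 and 46.3. MCL1 stays between 151 and 199, where 199 rests on 18 UMIs in CXCL13 cells.

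Across the 7 groups, the genes whose log2(CPM + 10) was most like that of BCL2 were NSA2 (Pearson r = 0.98), MAML2 (0.97) and KLF2 (0.95), among 2885 genes with at least 1000 UMIs. Those most like BCL2L1 were GLIPR2 (r = 0.99), ITGAL (0.99) and IFI35 (0.99). For BCL2A1 they were BAZ1B, TAPBP and TRAV12-3 (0.96 to 0.98), for MCL1 DDX17, CEP85L and COA1 (0.95 to 0.97), for BAX MVP, BECN1 and SLC66A3 (0.97 to 0.99), for BAK1 APBA3, SLAMF1 and POLR2I (0.93 to 0.97), for BCL2L11 CRTC2, FTH1 and USP5 (0.97) and for BID TRA2A, LYPLA2 and SMC1A (0.986 to 0.995). Within the family, r was -0.73 between BCL2 and BCL2L1 and 0.78 between BAX and BAK1. These values describe 7 points from 1 library, 4 of them with few UMIs, and the best of many genes is high by choice.

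The family was also set against the mitochondrial limit, above which cells are discarded as damaged. The 205 CD3E+ cells above 20% held a median of 2828 non-mitochondrial UMIs, against 3462 in the kept cells, and CPM was taken over non-mitochondrial UMIs for this comparison. BCL2 gave 32 UMIs above the limit (54.8 CPM, 37.5 to 77.4) and 1083 below it (38.0 CPM), a log2 ratio of 0.53 (-0.02 to 1.04). BCL2A1 gave 18 UMIs (30.8 CPM, 18.3 to 48.7) against 46.8 CPM, a log2 ratio of -0.60 (-1.36 to 0.07). MCL1 was at 0.25 (-0.03 to 0.51) and BAX at -0.16 (-0.53 to 0.19). Of these 4 counted members, 0 were past the fold higher and BCL2A1 was past it lower, where 12.6% of 3203 genes were higher and 2.09% lower, and its interval includes 0. BCL2L11 gave 26 UMIs (44.6 CPM, 29.1 to 65.3) against 26.2 CPM, a log2 ratio of 0.77 (0.14 to 1.33), with 15.5 UMIs expected. The median log2 ratio of all counted genes was 0.10.

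By mitochondrial share (0 to 5, 5 to 10, 10 to 20 and 20 to 50%), BCL2 stood at 34.8, 42.3, 48.7 and 53.5 CPM and BCL2L11 at 23.2, 31.8, 32.5 and 43.1. Both orders followed the share, and for both the interval of the lowest bin ended below the level of the next. In cells thinned to a fixed depth, the log2 ratio across the limit was 0.02 for BCL2 and 0.84 for BCL2L11. This rests on 155 thinned cells above the limit, of which 5 had BCL2 and 8 had BCL2L11. Over all gene UMIs the log2 ratios were 0.19 and 0.43. With equal weight per cell they were 0.93 for BCL2 and 1.25 for BCL2L11, and with or without a CD3E UMI 0.89 and 0.73. The higher level of BCL2 above the limit was thus not seen in the few thinned cells, and kept its direction in the other values given here. BAX went from 129 (124 to 134) to 112 CPM (86.5 to 143), within counting error of the last bin. BCL2A1 stood at 47.8, 42.9, 49.1 and 29.3 CPM, BCL2L1 at 28.9, 32.5, 28.6 and 24.1, and MCL1 at 172, 185, 172 and 202. Only 4 cells lay above 50%. GZMB gate cells were 18.0% of those above the limit and 33.2% of the kept cells; outside the GZMB gate the log2 ratio was 0.25 for BCL2, 0.72 for BCL2L11 and -0.35 for BCL2A1. Within the GZMB gate, where 37 cells lay above the limit with 7, 9 and 5 UMIs of these genes, it was 1.43, 1.06 and -0.82. Of 16 genes of the death machinery examined, 7 were counted across the limit. Past the fold, 1 was higher and 0 lower, where 12.6% and 2.09% of all counted genes were. The higher gene was CASP8, the initiator caspase of the death receptor route (154 against 89.3 CPM, log2 0.79, 0.47 to 1.09). The median log2 ratio of the 7 was -0.16, against 0.10 over all counted genes.

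**Figure D4:**
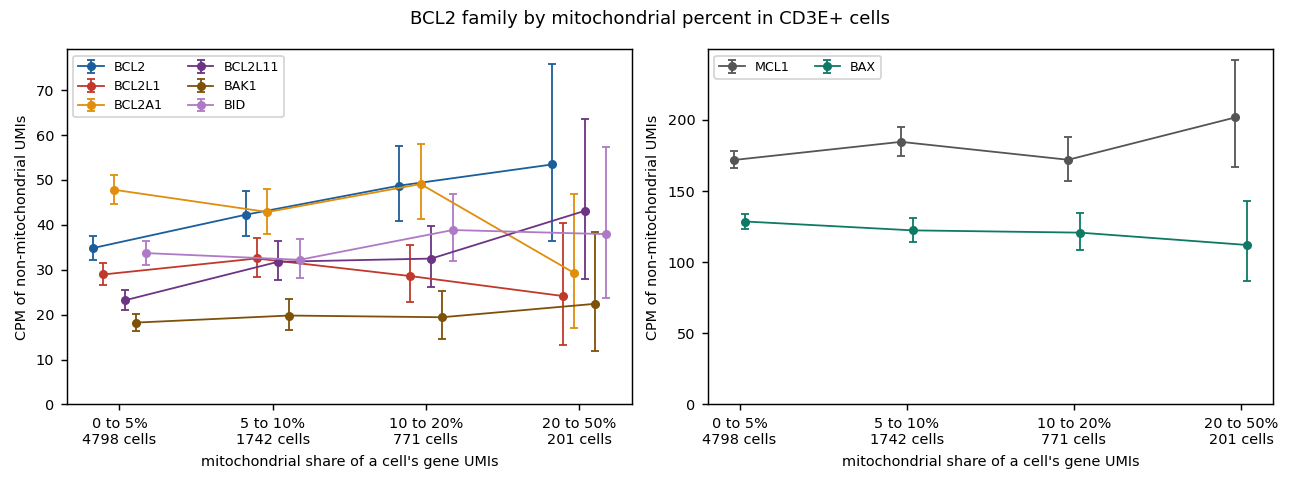
Levels of the 8 members (CPM of non-mitochondrial UMIs, y axis) in CD3E+ cells binned by the mitochondrial share of their UMIs (x axis, with the number of cells); points are sums over cells and bars are 95% counting intervals. BCL2 goes from 34.8 to 53.5 CPM and BCL2L11 from 23.2 to 43.1, while BCL2A1 is at 29.3 CPM in the last bin.

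The antibody tags gave a further way to order the cells. The 1839 cells with at least 501 CD4 tag UMIs were set against the 1839 with at most 290. BCL2L11 was lower in the CD4-high cells, at 18.6 CPM (16.1 to 21.4) against 33.3 (28.8 to 38.4), a log2 ratio of -0.84 (-1.14 to -0.54). BCL2L1 was also lower, at 24.1 against 37.2 CPM, a log2 ratio of -0.63 (-0.90 to -0.36), and BCL2 was higher by 0.56 (0.29 to 0.84), short of the fold. Of the 8 members, 0 were past the fold higher and 2 lower, where 5.81% of 8903 genes were higher and 8.1% lower. The GZMB gate held 55.7% of the CD4-low cells and 21.9% of the CD4-high cells, and their part in these ratios was not tested.

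By CD8 tag, 1831 cells with at least 573 UMIs were set against 1840 with at most 193. The CD8-low cells had a median of 133 CD8 tag UMIs, where the 86 B cell gene barcodes had 139.5. Of the 8 members, 0 were past the fold, where 4.5% of 9096 genes were higher and 1.76% lower. MCL1 was higher in the CD8-high cells, at 189 against 150 CPM, a log2 ratio of 0.34 (0.22 to 0.45). BCL2L11 was lower, at 18.6 against 27.0 CPM, a log2 ratio of -0.54 (-0.85 to -0.23). BCL2 and BCL2L1 had log2 ratios of 0.10 (-0.14 to 0.34) and -0.06 (-0.35 to 0.24). The tag-high cells also held more UMIs per cell (medians of 4867 for CD4 and 4594 for CD8, against 3065 and 3364.5), and cells with B cell genes were 3.82% of the CD8-high and 0.489% of the CD8-low cells.

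Beyond the 8 members, 13 further family genes and 16 genes of the death machinery were examined; 11 and 15 of them had a row under their symbol or gene ID. In the GZMB gate 6 of the family genes were counted, 2 higher past the fold and 1 lower, where 17.3% and 8.77% of all counted genes were. PMAIP1 (NOXA), a BH3-only protein that engages MCL1 and BCL2A1, stood at 129 against 61.7 CPM, a log2 ratio of 1.06 (0.95 to 1.18). BAD, which engages BCL2 and BCL2L1, was at 0.71 (0.47 to 0.95), and BIK, another BH3-only protein, at -0.89 (-1.51 to -0.30) on 30 UMIs. PMAIP1 was also higher in the EOMES gate, at 161 against 78.6 CPM (log2 1.04, 0.84 to 1.22). It was lower in the CCR7 (-0.82), FOXP3 (-0.87) and CXCL13 (-1.23, on 11 UMIs) gates. Of these further family genes, 4 were counted in the EOMES gate, where 2.4% of all counted genes were higher. In the CCR7 gate 6 were counted, and in the FOXP3 and CXCL13 gates 1 each. In these 3 gates 13.3%, 12.5% and 7.76% of all counted genes were lower. Apart from PMAIP1, BAD and BIK, no counted family gene was past the fold in any of the 6 gates.

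Of the death machinery 14 genes were counted in the GZMB gate, 6 higher past the fold and 1 lower, where 17.3% and 8.77% of all counted genes were; the median log2 ratio was 0.39, against 0.18 over all counted genes. Among the higher genes were APAF1, the scaffold of the apoptosome (0.99 on 33 UMIs), HTRA2 (0.88) and DIABLO (0.68), mitochondrial proteins that counter inhibitors of apoptosis, CASP10 (0.71) and CASP9, the caspase of the apoptosome (0.63). BIRC3, an inhibitor of apoptosis protein and an NF-κB target, was lower, at 15.9 against 43.1 CPM, a log2 ratio of -1.44 (-1.70 to -1.19). In the CCR7 gate 14 were counted, 1 higher past the fold and 3 lower, where 5.99% and 13.3% of all counted genes were. BIRC3 was the higher gene (54.3 against 23.6 CPM, log2 1.20, 1.03 to 1.38). CASP9 (-0.87) and APAF1 (-0.63, on 18 UMIs) were among the lower. Of 8 counted in the FOXP3 gate, 2 were past the fold higher and 0 lower, where 3.22% and 12.5% of all counted genes were. BIRC3 was among the higher (0.79, 0.33 to 1.21). Of 11 counted in the EOMES gate, 0 were higher and 1 lower, where 2.4% and 3.18% of all counted genes were. The lower gene was BIRC3 (-0.60, -1.12 to -0.12). Between CD4-high and CD4-low cells 13 were counted, 1 higher and 2 lower, where 5.81% and 8.1% of all counted genes were. BIRC3 was at 1.01 (0.72 to 1.31) and HTRA2 at -0.70. Of 6 further family genes counted there, 1 was past the fold higher and 0 lower, and BIK was at 0.97 (0.25 to 1.74).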

How the data were processed

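The authors ran Cell Ranger 3.1.0, with STAR 2.5.1b, on the Mmul_10 genome, per the labels, and deposited raw UMI counts per gene or antibody tag and barcode, with no normalization; Seurat 3.1.3 is also listed. Barcodes with 200 to 4000 genes were kept. The 13 named mitochondrial genes and 2 unnamed features listed among them gave the mitochondrial percent. All 8 members passed the study's filter of 3 barcodes per gene. UMIs were summed over the cells of a group and scaled to CPM, with exact Poisson intervals for levels, exact conditional binomial intervals for ratios and exact binomial (Clopper-Pearson) intervals for shares; a count of 0 was set to 3 counts. Cells were thinned with seed 1, to 1000 non-mitochondrial UMIs in the mitochondrial comparison. Groups came from 1 sample, so no test was run. Calculations used Python 3.11.15, numpy 2.4.6, scipy 1.17.1, pandas 2.3.3 and matplotlib 3.10.9. The intervals were tested on simulated counts drawn as independent Poisson values, the model that they assume. Clustering of UMIs within cells was not simulated, so that test does not cover it. All 8 members are described in each comparison; listed family and death genes were eligible to be named where past the fold, and results for some of them are not reported here. Members and lists were chosen with earlier results of these data known.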

Additional observations from a re-analysis of the deposited data

How the results depend on the processing

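In the comparisons by gate and by mitochondrial limit, no member past the fold changed direction under an alternative; no alternative was run for the CD4 and CD8 tag comparisons. Of 688 values of single members under the alternatives, 648 stayed within the counting interval of the reported value and 40 left it. A fold of 2 and minimums of 10 and 50 expected UMIs cannot change a ratio. Their values are therefore among the 648 by construction and say nothing about stability. The count of members past the fold was 4 for GZMB and 3 to 5 under its alternatives, except that a fold of 2 left 2. For CCR7 it was also 4, and became 0 with a fold of 2, 0 against cells outside all 6 gates, 1 with the gate at 2 UMIs, 1 outside the GZMB gate, and 3 both with or without a CD3E UMI and with a mitochondrial limit of 10%. For the mitochondrial limit it was 1, and became 2 with a minimum of 10 expected UMIs, 3 with equal weight per cell and 2 over all gene UMIs. It was 0 with a fold of 2, a minimum of 50, a limit of 10%, without cells with B gene UMIs, within or outside the GZMB gate and after thinning. With or without a CD3E UMI it stayed at 1, but the member changed. BCL2 was then past the fold, higher at 0.89, and BCL2A1 was short of it at -0.24. For EOMES it went from 0 to 1 with the 10% limit and against cells outside all gates. For CXCL13 it went from 0 to 1 with a minimum of 10, equal weight per cell, without B gene cells, without the 5% of cells with most UMIs, with the 10% limit and with the gate at 2. For TRAV10 it went from 0 to 1 with the 10% limit, against cells outside all gates, with the gate at 2 and outside the GZMB gate. FOXP3 stayed at 0. The causes were not tested, beyond the construction of each alternative. The comparisons within or outside the GZMB gate, without CCR7 cells and without receptor segments were chosen after seeing the data, apart from that of the mitochondrial limit. No paired analysis was possible because there is 1 sample. Depth limits the FOXP3, CXCL13 and mitochondrial comparisons most, where a member rests on 3 to 141 UMIs in the smaller group.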
